A study of Mus musculus with 4 samples.

Results

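The WNT genes described here are 5 ligands (Wnt4, Wnt5a, Wnt6, Wnt7b and Wnt10a), the receptor Lgr4, the secreted antagonists Sfrp1 and Dkk3, the transcription factor Lef1 and the feedback inhibitor Axin2. They were chosen by name, as WNT ligands and pathway readouts, and are 10 of the 31053 genes in the count matrices. All 10 were found in each of the 4 matrices under the same identifier, and none was used to define the cell clusters. By the GRCm38 annotation Wnt4 lies at chr4:137277489-137299726, Wnt5a at chr14:28504750-28527448, Lgr4 at chr2:109917647-110014257, Sfrp1 at chr8:23411502-23449632, Lef1 at chr3:131110471-131224356 and Axin2 at chr11:108920349-108950783, all on the plus strand, and Wnt7b at chr15:85535437-85582473 and Dkk3 at chr7:112116017-112159057 on the minus strand. The other 79 genes of a WNT pathway list (ligands and their secretion, receptors, R-spondin axis, secreted inhibitors, cytoplasmic and nuclear components, transcriptional readouts) are given as counts, with values for those that passed a test.

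The study profiled single cells of the mouse prostate by droplet RNA sequencing, in which each captured transcript is counted once by its unique molecular identifier (UMI). Adult ICR (CD-1) mice, over 8 weeks old, carried the P2-Runx1:RFP reporter, in which the P2 promoter of Runx1 directs a red fluorescent protein. EPCAM+ cells of pooled mice were sorted into RFP+ and RFP- fractions by lobe, anterior (AP), dorsolateral (DLP) or ventral (VP), tagged with lipid barcodes (MULTI-seq) and sequenced together in 3 runs: intact mice in all runs, and mice castrated for over 4 weeks in runs 1 and 2. A further library held urogenital sinuses (UGS) of E15.5 ICR (CD-1) embryos, the tissue from which the prostate buds. Day 0 was the E15.5 tissue itself, and days 1, 3 and 6 were days of explant culture with 10 µM dihydrotestosterone. By the study's methods, the middle part of the explants was dissected, and EPCAM+ cells were sorted for each day. RFP reports the activity of the P2 promoter, so a sort on RFP is not a sort on the Runx1 transcript, and a run is a pool of mice, not a single animal. In run 1 the lobes of castrated mice were pooled, so castration by lobe rests on run 2. DLP RFP+ cells of intact mice were assigned in run 3 alone.

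WNT ligands are secreted lipid-modified proteins that bind Frizzled receptors, and in the canonical branch this stabilises beta-catenin, which acts in the nucleus with LEF1 and the TCF proteins. LGR4 binds R-spondins and so raises the amount of Frizzled at the surface, SFRP1 binds WNT ligands outside the cell, and AXIN2 is part of the complex that degrades beta-catenin and is itself a widely used target gene of the pathway. WNT signalling is known for its part in prostate budding and in the maintenance of basal and luminal progenitors.

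The files held 2612 to 7474 cells per library and 35051876 to 121090404 UMIs in all. After filtering and barcode assignment 824, 2194 and 1673 cells remained in runs 1 to 3, with medians of 13055, 10618.5 and 9750 UMIs, and 5198 in the explant library, with a median of 14784.5. No pair of libraries shared more than 6 cell barcodes. Cells were clustered without the WNT list and named by marker genes: basal-like cells (Krt5, Krt14), Lum-A-like to Lum-F-like luminal cells, and hematopoietic-like, endothelial-like, fibroblast-like and mesonephric-like cells. Of the cells called fibroblast-like, 37.7% had an Epcam UMI, against 94.2 to 97.0% in the 4 basal-like clusters and at least 97.5% in the luminal ones, so cells of other types were present after the sort. In the endothelial-like cluster the share with an Epcam UMI was 69.9%. Levels are counts per 1000000 UMIs (CPM) in the sum of a run's cells of one population. Values are mean ± SD over runs, and a sum had at least 10 cells. No label says which animals a run pooled, so p-values measure only the spread between these runs, which may be technical. In the 9 populations with 3 runs, run 1 was the highest for Wnt4 in 9 and for Lgr4 and Wnt7b in 8 each.

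Wnt4 differed widely between the luminal classes. In cells of intact mice it averaged 362 ± 91.6 CPM (n = 3 runs) in Lum-D-like cells, which are marked by Psca and Krt4, and 180.3 ± 65.8 CPM (n = 3) in basal-like cells. It averaged 80.7 ± 13.9 CPM (n = 2) in Lum-C-like cells, 12.7 ± 4.95 CPM (n = 3) in Lum-B-like cells and 7.77 ± 1.20 CPM (n = 3) in Lum-A-like cells. Hematopoietic-like cells, used as a yardstick for free RNA, held 11.1 ± 5.54 CPM (n = 2). The Lum-A-like and Lum-B-like levels were not above this beyond the spread. The yardstick is rough, since the classes differ in depth and 34.0% of the larger hematopoietic-like cluster had an Epcam UMI. How much of each level was free RNA was not tested. Each step from Lum-D-like through basal-like and Lum-C-like to Lum-B-like cells was wider than the sum of the SDs, and the Lum-B-like and Lum-A-like means were closer than that. Wnt4 was also counted in other clusters. It stood at 189.9 ± 39.9 CPM (n = 2) in endothelial-like, 156 ± 67.0 (n = 3) in fibroblast-like and 179 (n = 1) in mesonephric-like cells. Of the endothelial-like cells 69.9% had an Epcam UMI, and of the fibroblast-like cells 37.7%, so these levels may not be those of endothelium or fibroblasts. The part of epithelial cells or RNA in them was not tested. In the unnamed adult cluster 13 it stood at 247 ± 69.2 CPM (n = 2).

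The share of cells with a Wnt4 UMI was 89.6% of 453 Lum-D-like, 69.4% of 1669 basal-like, 10.4% of 383 Lum-B-like and 6.84% of 234 hematopoietic-like cells, at median depths of 11116, 9025, 19804 and 6968.5 UMIs. Thinned to 5000 UMIs per cell, the shares were 78.6%, 51.8%, 4.85% and 4.49%, with 37, 150, 67 and 56 shallower cells left out. Lum-A-like cells, the deepest at a median of 48145 UMIs, went from 19.2% unthinned to 3.98% thinned, and Lum-C-like cells (median 31586 UMIs) from 68.8% to 30.3%. Thinned, the order of these 6 classes was that of the levels, with the A-like and B-like luminal classes near the hematopoietic-like share. Outside them, the thinned shares were 51.0% of endothelial-like, 41.6% of mesonephric-like and 37.5% of fibroblast-like cells.

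**Figure D1:**
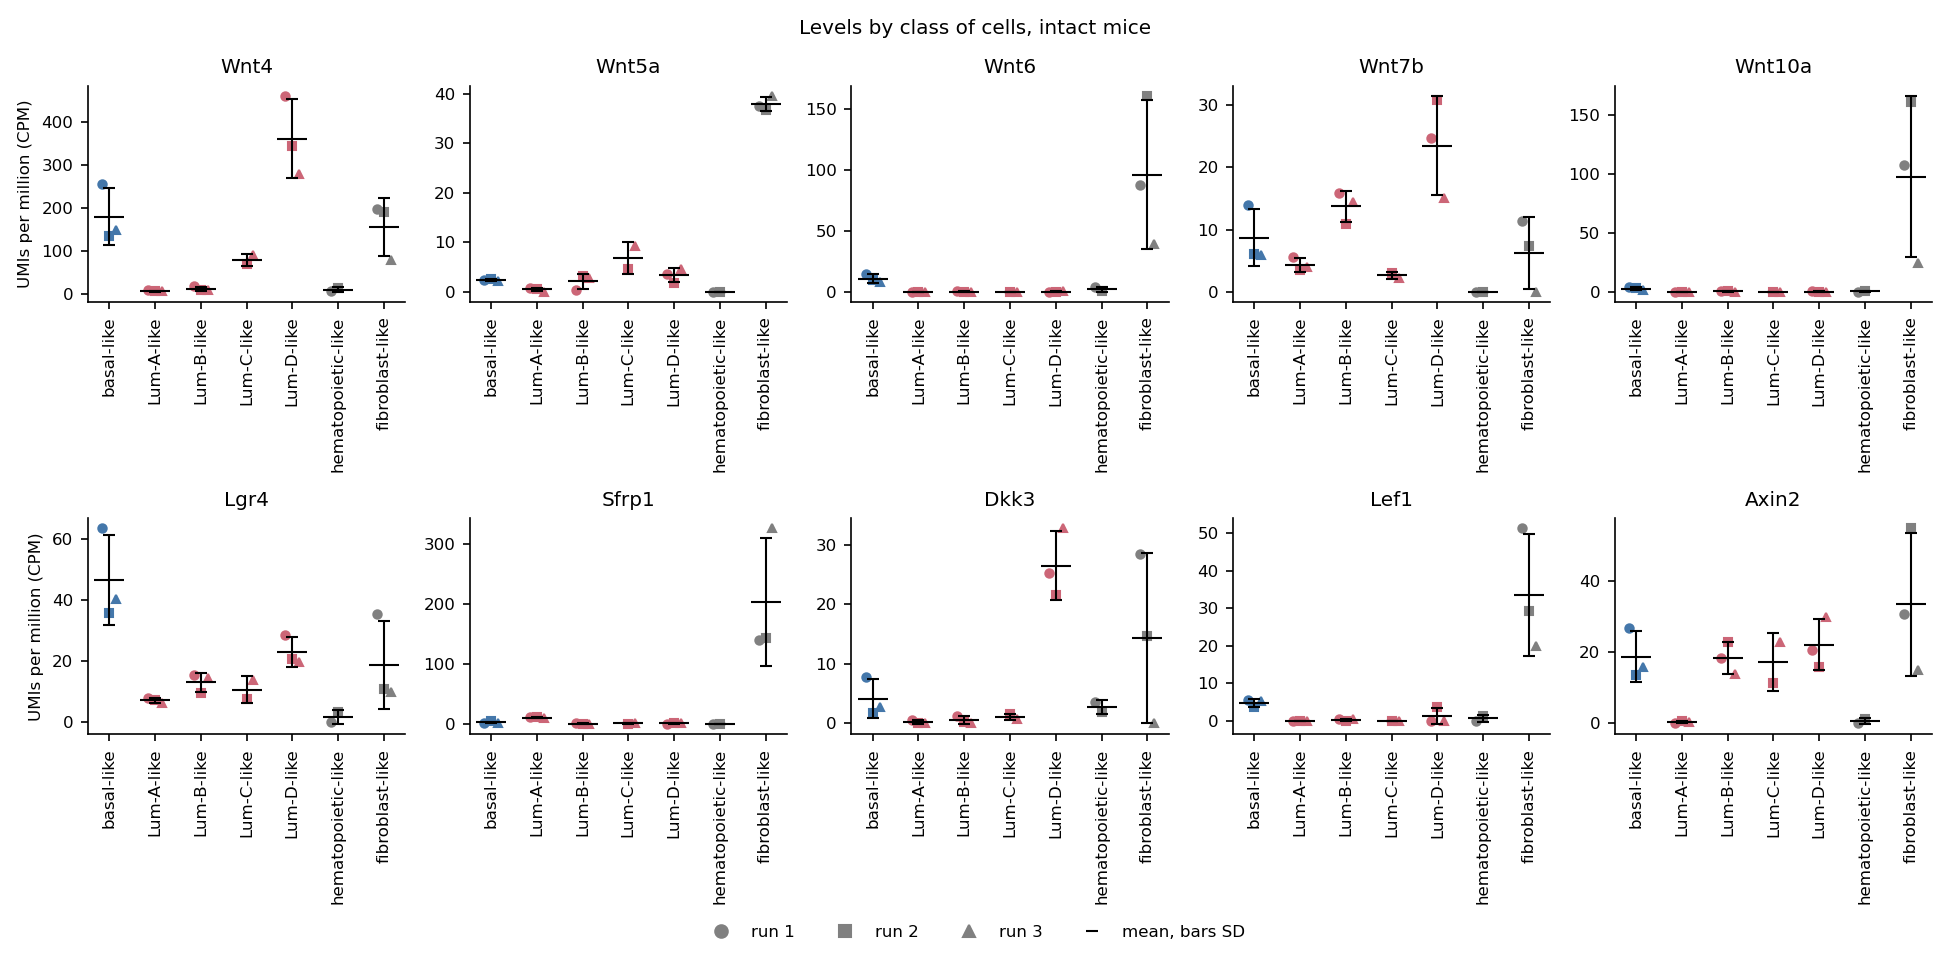
Level of each of the 10 WNT genes (CPM, vertical axis, linear, a separate scale per gene) in 7 classes of cells of intact mice; each point is the sum of one run's cells, black bars are the mean and SD over runs. Wnt4, Wnt7b and Dkk3 have their highest luminal level in Lum-D-like cells, while Wnt5a, Wnt6, Wnt10a, Sfrp1, Lef1 and Axin2 have their highest mean in the fibroblast-like cluster.

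Among the other ligands, Wnt7b, which is expressed in many epithelia, averaged 23.5 ± 8.00 CPM in Lum-D-like and 13.7 ± 2.54 CPM in Lum-B-like cells (n = 3 each), against 4.35 ± 1.10 in Lum-A-like cells, 8.68 ± 4.57 in basal-like cells and 0 in hematopoietic-like cells (n = 2). Wnt5a, a ligand best known for branches of the pathway that do not use beta-catenin, averaged 2.13 to 6.89 CPM in the other epithelial classes and 0.511 ± 0.394 CPM in Lum-A-like cells and 38.0 ± 1.51 CPM in fibroblast-like cells. Wnt6 and Wnt10a are neighbouring genes on chromosome 1 of GRCm38, both on the plus strand (chr1:74771892-74785322 and chr1:74791516-74804179), with 6193 bases between them. Among the named epithelial classes both were highest in basal-like cells: Wnt6 averaged 10.7 ± 3.71 CPM and Wnt10a 2.84 ± 1.46 CPM in basal-like cells, with at most 0.192 and 0.398 CPM in the Lum-A-like to Lum-D-like classes. The unnamed adult cluster 13, whose leading genes include Ivl, Ly6d and Upk3a and whose cells all had an Epcam UMI, had 5.79 ± 3.32 CPM of Wnt6 and 14 ± 4.49 CPM of Wnt10a (n = 2), from 4 and 9 UMIs in 47 cells. Fibroblast-like cells held more of both, with 96.2 ± 61.3 and 98.1 ± 68.9 CPM over 3 runs that differed widely. Fibroblast markers summed to 2.62 to 19.1 CPM in the basal-like sums and 0 to 11.5 CPM in the luminal ones; their part in the basal levels of Wnt6 and Wnt10a was not tested.

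Among the named epithelial classes, Lgr4 was highest in basal-like cells (46.5 ± 14.8 CPM). Endothelial-like cells held 51.5 ± 15.3 CPM of it (n = 2). Lgr4 was lower in Lum-D-like cells (22.9 ± 4.97). Of the named luminal classes, Lum-A-like cells had its lowest mean (7.14 ± 0.869). An Lgr4 UMI was found in 26.2% of Lum-A-like and 20.1% of Lum-B-like cells, at median depths of 48145 and 19804 UMIs. Thinned to equal depth as for Wnt4, these shares were 3.62% and 6.31%. CPM and thinned shares of every member depend on the other RNA of a class. The part of this in the class differences was not tested. Dkk3, a divergent member of the Dickkopf family of secreted proteins, reached 26.5 ± 5.76 CPM in Lum-D-like cells and 0.255 to 1.15 CPM in the Lum-A-like to Lum-C-like classes. Sfrp1 showed the reverse: 11.1 ± 0.959 CPM in Lum-A-like cells and 0.691 to 1.63 CPM in the other luminal classes of intact mice. Lef1 averaged 4.82 ± 1.03 CPM in basal-like cells, against 0.0324 to 1.25 CPM in luminal classes with any UMI. Axin2 stood at 17.2 to 22.2 CPM in basal-like cells and in every luminal class but Lum-A-like, which did not differ beyond their spread, and at 0.346 ± 0.302 CPM in Lum-A-like cells, not above the 0.653 ± 0.923 CPM of hematopoietic-like cells.

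Next, the RFP+ and RFP- fractions were compared within a lobe and compartment, which asks whether cells with an active Runx1 P2 promoter carry different WNT transcripts. In AP luminal-like cells, Wnt4 was 381, 197 and 229 CPM in runs 1, 2 and 3 of the RFP+ fraction and 44.3, 14.8 and 4.29 CPM in the same runs of the RFP- fraction. The fractions did not overlap, and Wnt4 was 3.44 ± 0.48 log2 units (SE) higher in RFP+ cells, with an adjusted p of 0.00126 (edgeR quasi-likelihood test, Benjamini-Hochberg over 8807 genes). Dkk3 was 21.9, 12.9 and 31.0 CPM in RFP+ and 1.90, 0.301 and 1.43 CPM in RFP- luminal-like cells. These values come from 157 and 5 UMIs in all, so Dkk3 reached the filter on low counts through its RFP+ sums. The fractions again did not overlap, and Dkk3 was 4.32 ± 0.58 log2 units higher in RFP+ cells, with an edgeR adjusted p of 0.0010. Without run 1 the differences were 4.05 and 5.16 log2 units. Both genes passed under every alternative in which they were tested, and among cells with fewer than 7500 UMIs only Wnt4 had enough counts.

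The other members tested in AP luminal-like cells did not pass. Lgr4 had 25.8, 14.1 and 19 CPM in RFP+ and 14.5, 6.32 and 14.3 CPM in RFP- cells, a difference of 0.75 ± 0.32 log2 units (edgeR adjusted p = 0.119). Axin2 stood at 23.1 ± 7.88 against 18.4 ± 1.80 CPM and Wnt7b at 19.8 ± 4.47 against 14.9 ± 5.63 CPM (edgeR adjusted p = 0.727 and 0.432). A sum cannot tell fewer expressing cells from less RNA per cell. In all, 2 of the 5 members with enough UMIs were called, where 25.1% of all genes tested were called; the other 5 members did not pass the filter on low counts. The median log2 difference of the 5 members tested was 0.75, against -0.01 over all genes tested. With no low-count filter it was 0.56 over the 10 members, against 0.06 over all genes. TMM scaling had shifted all log2 differences of this comparison by a median of -0.17.

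Of the whole WNT list, 36 genes were tested and 7 were called, with a median log2 difference of 0.29. Beside Wnt4 and Dkk3 these were Ccnd1 (cyclin D1, 2.20 log2 units higher in RFP+ cells), Tle3 (a Groucho-type corepressor, 1.24), Ctnnb1 (beta-catenin, 1.05) and Wls (the carrier that brings WNT ligands to the surface, 0.67), and Nkd1, an inhibitor of Dishevelled that fell by 2.61. Their edgeR adjusted p-values lay between 3.24e-04 and 0.0165. The fractions also differed in class: 86.2% of 455 AP RFP+ luminal-like cells were Lum-D-like, and 86.1% of 266 RFP- ones were Lum-B-like, so a difference between the sorts cannot be told apart from one between these classes. Hematopoietic markers summed to 0.544 to 235 CPM in the RFP+ and 0 to 8.43 CPM in the RFP- luminal sums. Hematopoietic-like cells themselves had 11.1 CPM of Wnt4 and 2.77 CPM of Dkk3. The part of such cells in the differences between the fractions was not tested.

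**Figure D2:**
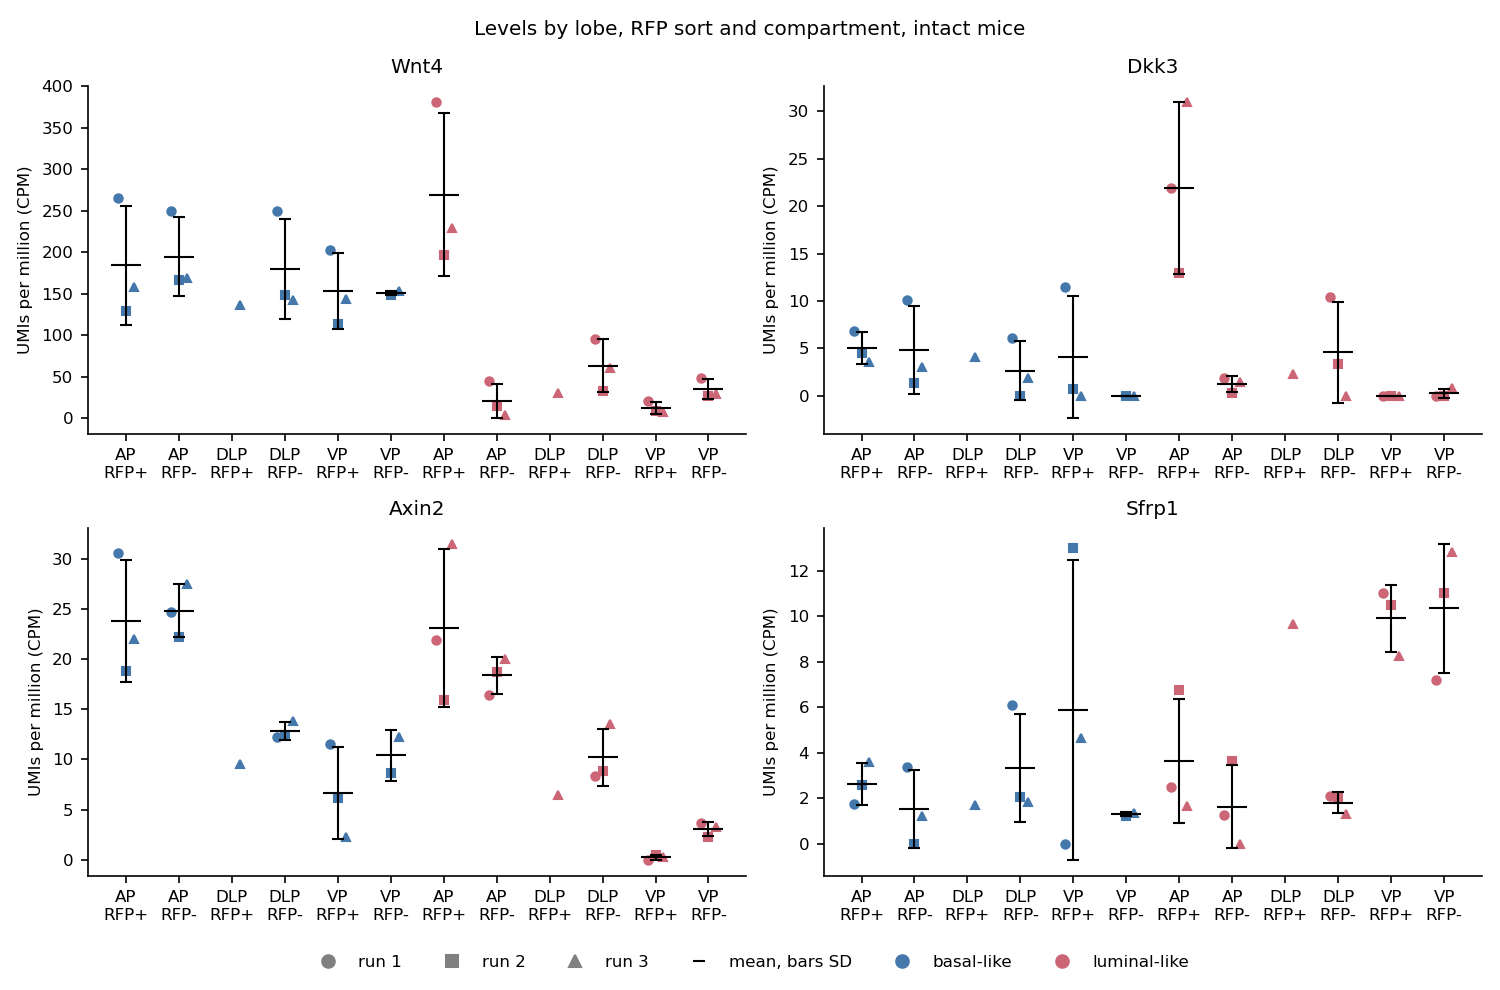
Levels of Wnt4, Dkk3, Axin2 and Sfrp1 (CPM, vertical axis, linear) by lobe and RFP fraction in basal-like (blue) and luminal-like (red) cells of intact mice; points are runs, black bars the mean and SD. Wnt4 and Dkk3 are high in the AP RFP+ luminal-like sums, Axin2 is near 0 and Sfrp1 near 10 in the VP luminal-like sums.

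AP basal-like cells gave another picture. Wnt4 was 265, 129 and 158 CPM in the RFP+ and 249, 166 and 169 CPM in the RFP- fraction, runs that overlapped (-0.09 ± 0.23 log2 units, edgeR adjusted p = 1.00). Lgr4, Wnt6, Wnt7b and Axin2 differed by -0.09 to 0.11 log2 units, within the spread between runs. None of the 5 members and 0 of 8675 genes were called by edgeR, with 112 genes and no member at an unadjusted p under 0.05; DESeq2 called 5 genes and no member, and the fit with run as a replicate block 45 genes and no member. In VP basal-like cells, with 3 RFP+ and 2 RFP- sums, 0 of 3 members tested and 1 of 6776 genes (0.0148%) were called by edgeR, with 0 members at an unadjusted p under 0.05 and 0 by DESeq2. Wnt6 there was 23.0, 9.94 and 16.2 CPM in RFP+ and 6.16 and 5.41 CPM in RFP- cells, a difference of 1.30 ± 0.62 log2 units that did not pass (edgeR adjusted p = 0.524, unadjusted p = 0.0576).

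In VP luminal-like cells Wnt4 was 21.3, 8.86 and 8.10 CPM in the RFP+ and 48.7, 27.1 and 28.9 CPM in the RFP- fraction, without overlap. The difference of -1.46 ± 0.36 log2 units did not pass in edgeR (adjusted p = 0.238, unadjusted p = 0.00244). It passed when run entered as a replicate block, which pairs fractions of the same pooled mice (-1.55, adjusted p = 4.77e-04), in DESeq2 (-1.48, adjusted p = 0.0414) and in edgeR without run 1 (-1.69, adjusted p = 0.0115). In edgeR 0 of 4 members tested were called (1 at an unadjusted p under 0.05, and 1 by DESeq2) where 0.327% of genes were, and 1 of 31 genes of the WNT list was called: Sp5, a transcription factor gene widely used as a target of the pathway, fell by 1.80 log2 units (edgeR adjusted p = 0.0395), a call lost when total UMIs alone set the scale, with at least 20 cells per sum, without run 2 and without run 3. Of the VP RFP+ luminal-like cells 93.1% were Lum-A-like, against 63.9% of the RFP- ones, where 31.1% were Lum-C-like. The classes again cannot be told apart from the sort. Tested directly by interaction terms in edgeR, which were added after the single comparisons had been seen, the RFP difference of Wnt4 differed between AP and VP luminal-like cells (adjusted p = 0.00160), as it did for 5.91% of genes, and between AP luminal-like and basal-like cells (adjusted p = 0.00549), as it did for 6.17%.

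Axin2 did not reach the filter on low counts in VP luminal-like cells. It had 0, 0.460 and 0.289 CPM in the RFP+ fraction and 3.61, 2.26 and 3.21 CPM in the RFP- fraction, from 6 and 13 UMIs in all. The fractions did not overlap, but the counts are few. Dkk3, Lef1, Wnt6 and Wnt10a had no UMI among 18418415 in the VP RFP+ luminal-like cells, which allows up to 0.163 CPM at 3 counts.

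Lobes were then compared at a fixed RFP fraction. Between AP and VP RFP- luminal-like cells, Sfrp1 was 1.27, 3.61 and 0 CPM in the AP and 7.21, 11 and 12.8 CPM in the VP, with no overlap; it was 3.11 ± 0.52 log2 units lower in the AP (edgeR adjusted p = 0.00331). Axin2 was 16.4, 18.7 and 20 CPM in the AP and 3.61, 2.26 and 3.21 CPM in the VP, again with no overlap. It was 1.76 ± 0.39 log2 units higher in the AP (edgeR adjusted p = 0.0120). Sfrp1 had 14 UMIs in all in the AP and 54 in the VP, and Axin2 had 102 and 13. Sfrp1 thus reached the filter on low counts through its VP sums, and Axin2 through its AP sums. The call for Axin2 was lost without run 2 (adjusted p = 0.260), without run 3 (0.0611) and without the 5% of cells with the most UMIs (0.106). Sfrp1 did not reach the filter on low counts without run 2 and passed in the other alternatives in which it was tested. The Wnt4 difference was -1.56 ± 0.48 log2 units, with 21.1 ± 20.7 against 34.9 ± 12 CPM in the AP and VP and overlapping runs. It missed the threshold (edgeR adjusted p = 0.0517) and passed it with run as a replicate block (-1.78, adjusted p = 0.00245), in DESeq2 (0.0125) and with the WNT list kept in the clustering (-1.30, adjusted p = 0.0486); with total UMIs alone it was -0.54 (adjusted p = 0.338). Wnt7b, at 1.35 ± 0.46 log2 units, did not pass (edgeR adjusted p = 0.0744) and passed with total UMIs alone (2.37, adjusted p = 0.00190) and with no low-count filter (adjusted p = 0.0435). The lobes differed in class as well, with 86.1% Lum-B-like cells in the AP RFP- and 63.9% Lum-A-like cells in the VP RFP- luminal-like sums, so lobe and class cannot be told apart.

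In that comparison 2 of 5 members tested were called, beside 15.6% of 7354 genes, 567 higher and 583 lower in the AP. Both called members had reached the filter on low counts through the lobe in which they were higher. The median of the members was -0.06 log2 units, and over all genes tested 0.02. TMM scaling shifted log2 differences by a median of -0.998, and with total UMIs alone edgeR called 5053 genes, 4864 of them higher in the AP. Lgr4, at -0.06 log2 units, was +0.96 without TMM, while under both scalings the log2 differences of Wnt4 and Sfrp1 were below 0 and those of Axin2 and Wnt7b above 0. Of the WNT list, 9 of 31 genes were called. Beside the members these were Nkd1 (7.25 log2 units higher in the AP), the TCF-type factors Tcf7l1 (2.06 lower) and Tcf7l2 (1.16 higher), the beta-catenin partner Bcl9 (1.99 higher), the corepressor Tle1 (1.52 higher), the receptor Fzd3 (1.24 higher) and Wls (1.12 higher).

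Between AP and DLP RFP- luminal-like cells 0 of 4 members were called by edgeR, where 0.746% of 8039 genes were, with 2 members at an unadjusted p under 0.05 and 0 called by DESeq2. Wnt4 was 63.4 ± 31.5 CPM in the DLP, from 33.1 to 96.0 CPM, against 21.1 ± 20.7 CPM in the AP, and the runs overlapped. The difference of -1.52 ± 0.50 log2 units did not pass (edgeR adjusted p = 0.295) and passed with the replicate block (-1.59, adjusted p = 0.00389), in which edgeR called 620 genes in place of 60. Nkd1, the one gene of the WNT list called, was 3.84 log2 units higher in the AP (edgeR adjusted p = 0.00284).

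Between AP and VP RFP+ basal-like cells 0 of 5 members and 20 of 8351 genes (0.239%) were called by edgeR, with 2 members at an unadjusted p under 0.05 and 0 called by DESeq2. Axin2 had 30.6, 18.8 and 22 CPM in the AP and 11.5, 6.12 and 2.31 CPM in the VP, runs that did not overlap. The difference of 1.81 ± 0.41 log2 units missed the threshold (edgeR adjusted p = 0.134) and passed it with the replicate block (1.70, adjusted p = 0.0175), where 471 genes were called. Wnt7b, with 10.7 ± 4.53 against 3.32 ± 0.874 CPM, differed by 1.45 ± 0.51 log2 units (edgeR adjusted p = 0.431). Wnt4, Wnt6 and Lgr4 differed by -0.46 to 0.25 log2 units.

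Basal-like and luminal-like levels were set side by side without a test, since the clusters come from the same cells. Counted are members with at least 20 UMIs over the sums of a lobe and RFP fraction, and a member differs where no run of one compartment overlaps a run of the other. In AP RFP+ cells Wnt6, Wnt10a, Lgr4 and Lef1 were higher in basal-like cells and Dkk3 in luminal-like cells, 4 and 1 of 10 members, beside 19.5% and 18.3% of genes. In AP RFP- cells Wnt4, Wnt6, Lgr4, Lef1 and Axin2 were higher in basal-like cells, 5 of 8 members beside 27.7% of genes, and none in luminal-like cells, beside 19%. Wnt4 shows the contrast between the fractions: 184 ± 71.8 CPM basal and 269 ± 98.1 CPM luminal in RFP+ cells, with overlapping runs, but 195 ± 47.0 and 21.1 ± 20.7 CPM in RFP- cells.

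In DLP RFP- cells Wnt4 and Lgr4 were higher in basal-like cells (2 of 6 members, beside 26.8% of genes) and Wnt7b in luminal-like cells (1 of 6, beside 14.7%). In VP RFP+ cells Wnt4, Wnt6 and Lgr4 were higher in basal-like cells, 3 of 5 members, but so were 51.1% of genes; Wnt7b was higher in luminal-like cells, beside 7.12%. Lgr4 was the one member higher in basal-like cells in all 4 populations, with 39.7 to 48.4 CPM basal and 7.86 to 19.6 CPM luminal. Over the 28 sums of intact mice with at least 30 cells, the genes whose levels most resembled those of Wnt4 among 4772 candidates were Rarg, Tnfaip8 and Bcl2 (Pearson's r of 0.962, 0.953 and 0.953), and for Lgr4 Dnajb1, Siva1 and Tfap2c (0.971, 0.966 and 0.963). These sums share runs, pools and compartments, and no p-value is given.

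Castration removes the androgen that maintains luminal secretion, and its effect was read within run 2, with 1 sum per group and hence no test; intervals are exact 95% intervals of the ratio and cover counting error alone. A member is called where it moved at least 2-fold with at least 20 UMIs in the pair of sums. In AP RFP+ luminal-like cells Wnt4 was 67.5 CPM in 192 cells of castrated mice and 197 CPM in 99 of intact mice, 2.91-fold lower (2.45 to 3.47). Dkk3 was 1.17 against 12.9 CPM, 11-fold lower (3.70 to 43.9). Axin2 was level at 16.1 and 15.9 CPM, and Lgr4 stood at 24.1 against 14.1 CPM (ratio 1.71, 1.06 to 2.84). Lower values were called for 7.46% and higher values for 9.94% of genes.

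The luminal classes differed with castration too: 82.3% of the AP RFP+ luminal-like cells of castrated mice were Lum-E-like, a class that made up 1.10% of those of intact mice over all runs. Within Lum-D-like cells, 18 castrated against 80 intact, Wnt4 was 231 against 346 CPM (ratio 0.668, 0.470 to 0.927) and Dkk3 11.3 against 22.9 CPM, 2.03-fold lower from 2 and 20 UMIs, with an interval (0.494 to 17.9) that included 1; there 16.9% of genes were lower and 3.91% higher. Over the whole AP RFP+ luminal-like sums, Ccnd1 was 2.62-fold lower and Myc and Axin1 3.18-fold and 2.63-fold higher. In AP RFP- luminal-like cells Axin2 was 5.31 against 18.7 CPM, 3.52-fold lower (1.43 to 11.2). Wnt7b was 2.12 against 8.43 CPM, 3.97-fold lower (1.00 to 34.4), from 2 UMIs in castrated and 28 in intact mice. Lgr4 was 14.9 against 6.32 CPM, 2.35-fold higher (1.11 to 4.84). There 15% of genes were lower and 5.75% higher. Wnt4 was not called there, at 15.9 against 14.8 CPM (ratio 1.08, 0.562 to 1.96). Of these cells 72.9% were Lum-E-like in castrated mice and 86.1% Lum-B-like in intact mice, so castration and class cannot be told apart. Among other readouts of the pathway in the same cells, Nkd1 was 19.5-fold (6.57 to 95.3) and Sp5 13.2-fold (3.55 to 111) lower, and Myc was 3.73-fold higher (2.64 to 5.30).

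In VP RFP+ luminal-like cells Axin2 was 7.72 against 0.460 CPM, 16.8-fold higher (5.57 to 67.8), and Lgr4 31.7 against 8.75 CPM, 3.62-fold higher (2.61 to 5.03). Wnt4 was 16.7 against 8.86 CPM (ratio 1.88, 1.25 to 2.78), short of the 2-fold call. In these cells, however, 44.8% of all genes were at least 2-fold higher and 2.52% lower, and 82.5% were Lum-F-like in castrated mice against 93.1% Lum-A-like in intact mice, so here too class and castration cannot be told apart. In DLP RFP- luminal-like cells, 20 castrated and 66 intact, Wnt4 was 8.52 against 33.1 CPM, 3.89-fold lower (1.43 to 14.8), beside 17.2% of genes lower and 2.32% higher; 10 of the 20 castrated cells were Lum-E-like, and 63.9% of those of intact mice Lum-B-like. In RFP+ basal-like cells Wnt4 was 76.8 against 129 CPM in the AP (ratio 0.595, 0.460 to 0.764) and 119.6 against 113 CPM in the VP (ratio 1.06, 0.749 to 1.47), and was called in neither. In AP RFP+ basal-like cells Wnt6 was 3.54-fold (1.16 to 14.4) and Lgr4 2.50-fold (1.41 to 4.71) lower, beside 12.7% of genes; in VP RFP+ basal-like cells no member was called, beside 8.23% of genes higher and 16% lower.

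**Figure D3:**
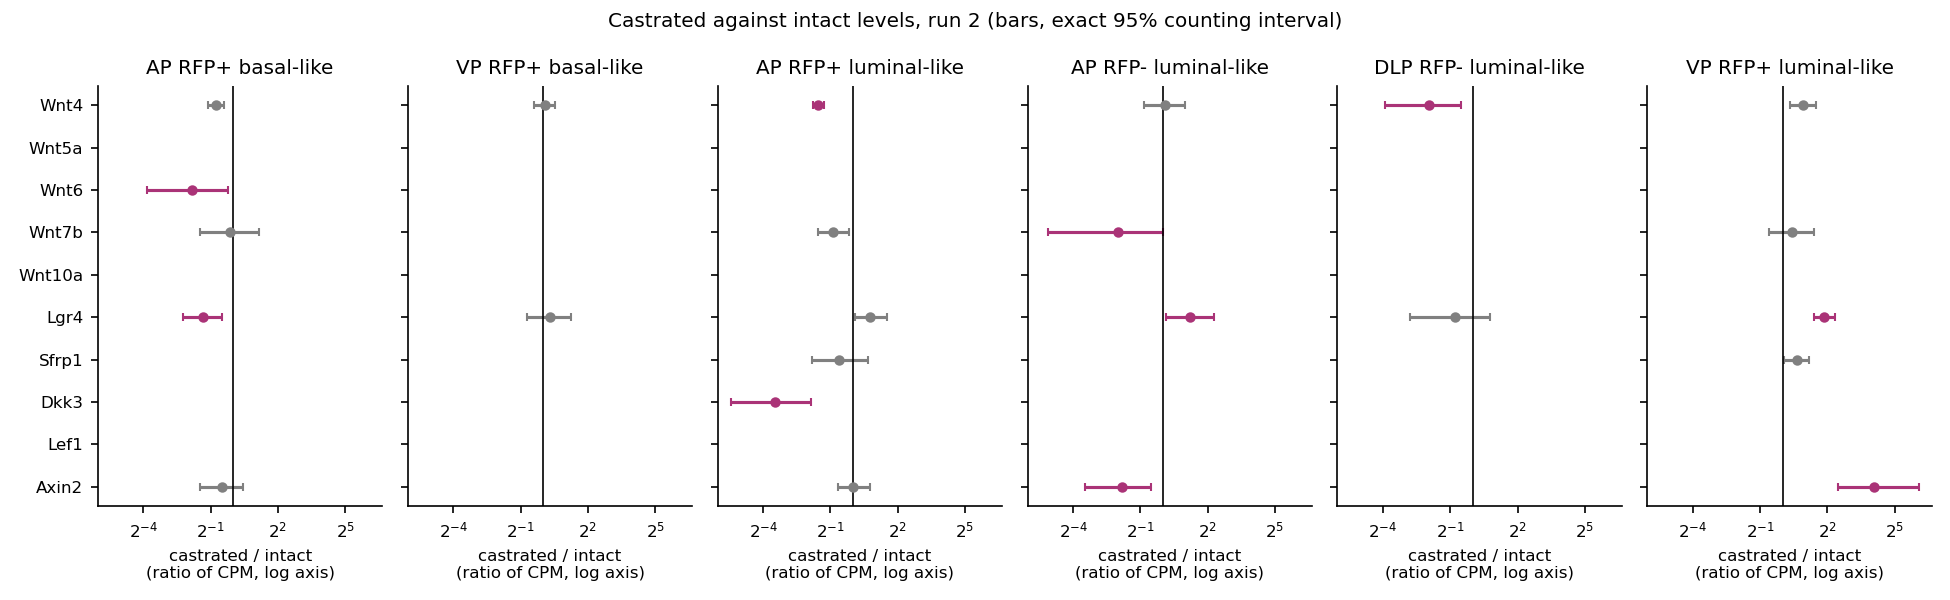
Ratio of the level in castrated to that in intact mice (horizontal axis, log scale) for the members with at least 20 UMIs, in 6 populations of run 2; bars are exact 95% counting intervals, and members at least 2-fold apart are in purple. Wnt4 and Dkk3 lie below 1 in AP RFP+ luminal-like cells, Axin2 and Wnt7b below 1 in AP RFP- and Axin2 and Lgr4 above 1 in VP RFP+ luminal-like cells.

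In the explant library, 1 pool per day, clusters 0, 1 and 2 were the prostatic-like epithelium. Of the 889 cells of cluster 2, 461 were of day 0 and 392 of day 1, and clusters 0 and 1 held mostly cells of days 3 and 6, so day and cluster cannot be told apart. Day 0 was tissue before culture, so time cannot be told apart from culture with dihydrotestosterone in a comparison with day 0. Over these clusters Wnt4 was 390.4, 289, 183 and 193 CPM at days 0, 1, 3 and 6, 2.02-fold lower by day 6 (1.95 to 2.11). Wnt10a went over the same days from 60.8 through 37.4 and 23.1 to 16.9 CPM, 3.60-fold (3.20 to 4.04), and Wnt7b from 25.3 to 12.6 CPM, 2.01-fold (1.72 to 2.35). Wnt6, at 97.0 to 130.3 CPM, and Wnt5a, at 7.53 to 13.3 CPM, stayed within 2-fold.

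Lef1 moved the other way, from 5.32 through 11.8 and 17.7 to 34.8 CPM, 6.55-fold higher at day 6 (5.08 to 8.59). Dkk3 went from 2.87 through 7.22 and 12.7 to 15.7 CPM, 5.49-fold higher (3.87 to 8.02). Axin2 was at most 20.2 CPM on the 4 days, with a ratio of 1.10 (0.928 to 1.31) between days 0 and 6, and Lgr4 was 36.6 CPM at day 0 and 57.4 CPM at day 6. Between days 0 and 6, then, 3 of 10 members were called lower, beside 11.1% of genes, and 2 higher, beside 8.01%. Of the other genes of the list, 11 were higher and 4 lower, among them Ccnd1 (4.68-fold higher), the secreted inhibitor Wif1 (5.64-fold higher), the receptors Fzd10 and Fzd1 (3.79-fold and 3.06-fold higher), Myc (2.44-fold higher) and Tle3 (2.71-fold lower).

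**Figure D4:**
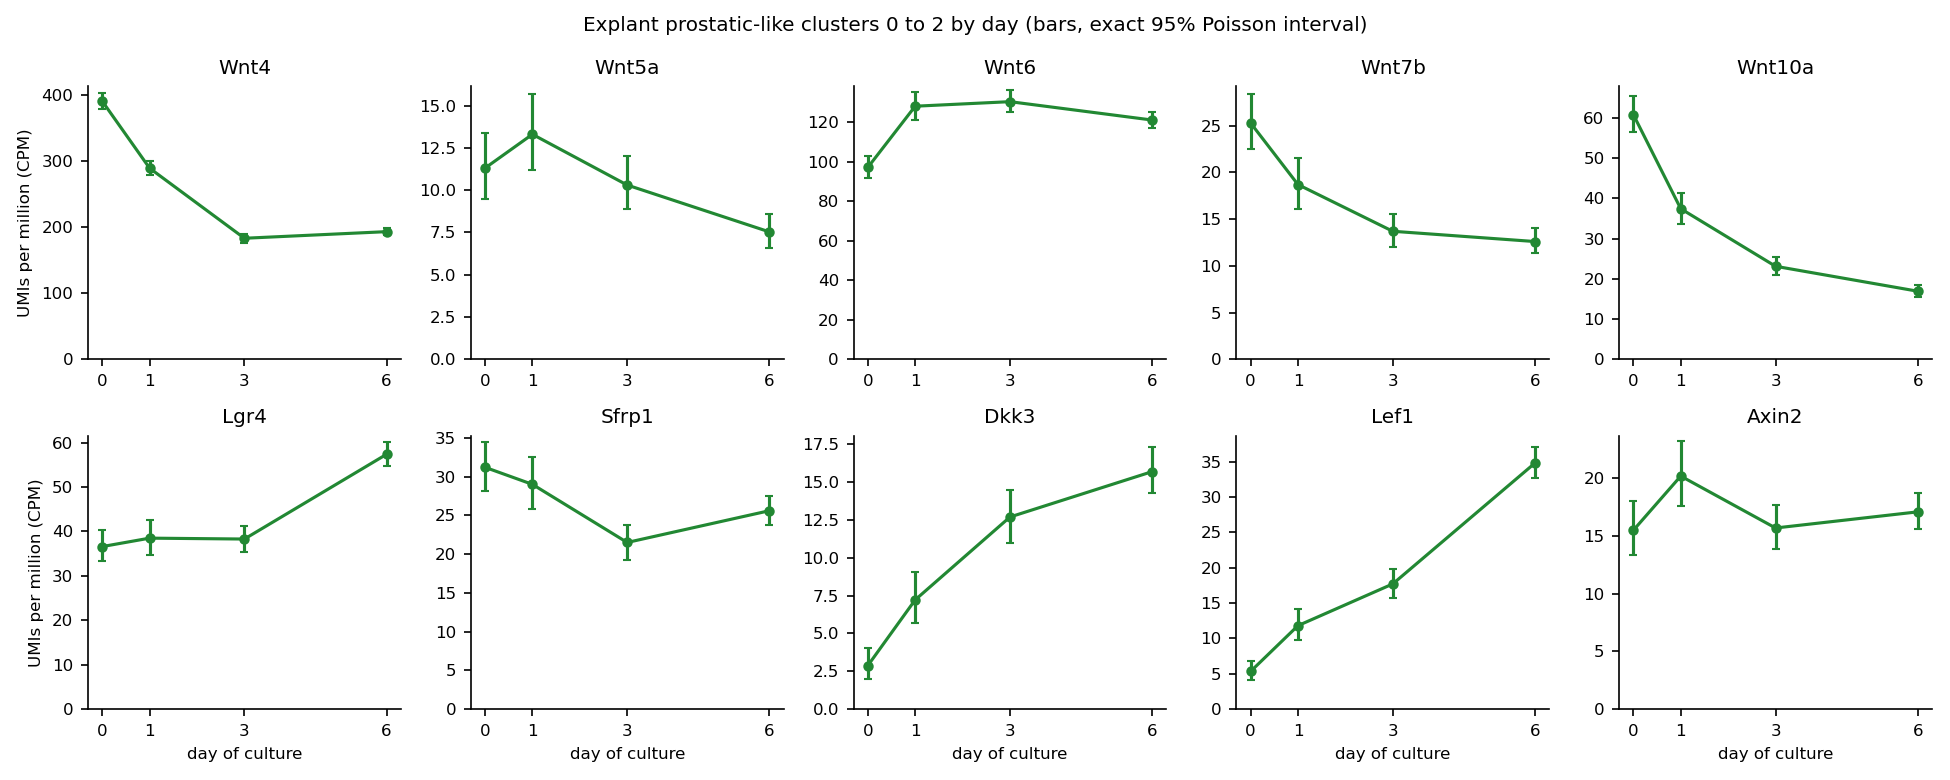
Level of each WNT gene (CPM, vertical axis from 0) by day of explant culture (horizontal axis) in prostatic-like clusters 0 to 2; bars are exact 95% Poisson intervals. Wnt4, Wnt7b and Wnt10a go down from day 0 to day 6, Lef1 and Dkk3 go up, and Axin2 shows no course.

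Clusters 0 and 1 were both present on days 3 and 6 and differed in their WNT genes. Cluster 0, whose leading genes include Wif1 and Vcan, had 80.1 CPM of Wnt4, against 374 CPM in cluster 1, which is led by Krt5 and Krt14: 4.68-fold lower (4.46 to 4.91). Wnt10a was 4.76 against 44.9 CPM, 9.43-fold lower (7.85 to 11.4), and Sfrp1 9.77 against 49.7 CPM, 5.08-fold lower (4.44 to 5.84). Wnt5a and Wnt7b were 2.76-fold and 2.45-fold lower, and Wnt6, at 92.1 against 182 CPM, was just short of 2-fold. Lef1 was higher in cluster 0, at 36.8 against 14.7 CPM (2.50-fold, 2.17 to 2.89).

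Axin2 was 19.8 CPM in cluster 0 and 11 CPM in cluster 1 (1.81-fold, 1.53 to 2.15), short of the 2-fold call, and Lgr4 and Dkk3 were level. In all, 5 of 10 members were lower and 1 higher in cluster 0, beside 9.62% and 5.06% of genes. Of the rest of the list, 12 were higher, with Ccnd1 at 3.88-fold, Wif1 at 7.18-fold, Fzd10 at 3.05-fold, Rnf43 at 2.46-fold and Sfrp2 at 2.31-fold, and 9 were lower, with the secreted antagonist Sostdc1 16.9-fold lower. These 2 clusters were made from the same cells, and the ratios describe them.

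Cluster 3, marked by Psca and Krt4 as the adult Lum-D-like cells are, had 652 CPM of Wnt4, 2.73-fold more (2.62 to 2.84) than clusters 0 to 2 together. Of the marker lists, that for urothelium scored highest in cluster 3, with 6 of its markers detected but none among the leading genes. The name Psca/Krt4-high rests on those 2 genes. Without cell cycle regression the cluster of that name held 23 cells, against 237 here. Cluster 3 was low in Lef1 (1.49 against 22 CPM), Dkk3 (0.743 against 11.5 CPM), Wnt6 (18.6 against 120.0 CPM), Wnt10a, Sfrp1 and Axin2 (6.93 against 17 CPM), with Wnt7b at 31.9 against 16.0 CPM, just short of the 2-fold call. That is 6 members lower and 1 higher, beside 17.6% and 8.98% of genes, and 28 of the other genes of the list lower and 2 higher. The mesenchyme-like cluster 8 was high in Wnt5a (77.1 CPM, 7.90-fold, 6.30 to 9.82) and Sfrp1 (123 CPM, 4.72-fold, 3.97 to 5.58). It was lower in the other ligands and in Lgr4, beside 21.7% of genes higher and 14.9% lower. Its 142 cells, 71 of them of day 1, were those left after a sort for EPCAM, and 21.1% had an Epcam UMI. They are therefore not a sample of the UGS mesenchyme. Elsewhere, Axin2 was highest in mesonephric-like cluster 7 (48.4 CPM), Wnt7b in mesonephric-like clusters 7 and 5 (65.2 and 61.5 CPM, with overlapping intervals) and Sfrp1 next highest after the mesenchyme in cluster 5 (93.2 CPM).

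**Figure D5:**
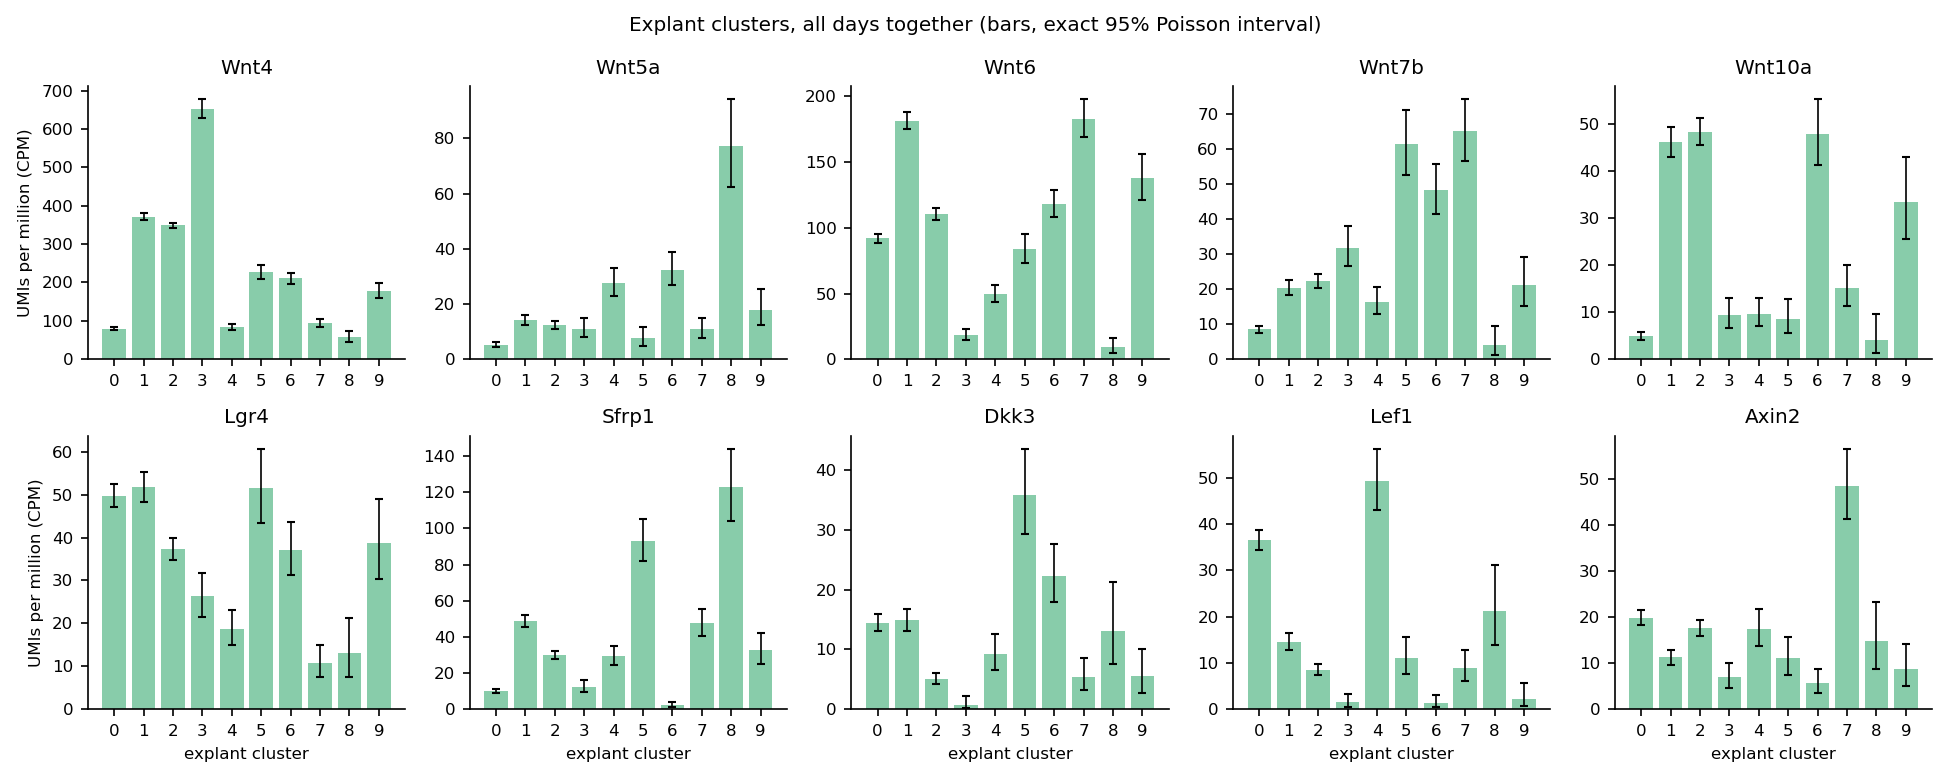
Level of each WNT gene (CPM, vertical axis from 0) in the 10 explant clusters, all days together (clusters 0 to 2 prostatic-like, 3 Psca/Krt4-high, 4, 5 and 7 mesonephric-like, 6 urothelium-like, 8 mesenchyme-like, 9 unnamed); bars are exact 95% Poisson intervals. Wnt4 is highest in cluster 3, Wnt5a and Sfrp1 in cluster 8, Lef1 in clusters 0 and 4.

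As the members include LEF1 and targets of the pathway, the 250 bases before each start were searched on both strands for CTTTGA, the core letters that LEF1 and the TCF factors bind. The RefSeq promoter table (GRCm38.p6) held Wnt4, Wnt6, Lgr4, Lef1 and Axin2 of the members. The motif was in 1 of their 8 starts, and in 13.8% of 32851 promoters of the same length. Of the WNT list, 10 of the 60 genes searched held it in at least 1 start. Some of these genes have several starts, so this share of genes cannot be set beside the share of promoters. List genes on 1 chromosome, which holds none of the members, were left out of that count. The 32851 promoters were not restricted in this way. The matching start of Lef1, the member with the largest ratio between days 0 and 6, and that of Sp5, which was lower in VP RFP+ luminal-like cells, are shown, both on the plus strand (Lef1, chr3:131156044-131156293; Sp5, chr2:70474673-70474922), with the motif (CTTTGA or TCAAAG on the other strand) in capitals:
Lef1: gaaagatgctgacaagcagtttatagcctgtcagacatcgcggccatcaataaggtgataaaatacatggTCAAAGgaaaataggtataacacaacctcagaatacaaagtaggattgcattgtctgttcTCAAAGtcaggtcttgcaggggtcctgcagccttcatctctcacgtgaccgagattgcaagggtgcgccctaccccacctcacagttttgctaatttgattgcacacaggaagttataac
Sp5: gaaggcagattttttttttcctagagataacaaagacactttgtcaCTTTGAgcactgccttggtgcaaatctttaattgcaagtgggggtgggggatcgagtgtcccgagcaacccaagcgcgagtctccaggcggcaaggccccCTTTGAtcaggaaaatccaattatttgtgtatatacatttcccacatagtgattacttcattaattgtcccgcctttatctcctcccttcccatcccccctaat
The Lef1 sequence belongs to 1 of 4 starts in the table, and each sequence holds 2 matches. A match is a description of these letters and not a bound site, and nothing on the factors follows from a window without one.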

How the data were processed

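Droplet libraries with MULTI-seq barcodes were made from 3 adult runs and 1 explant pool. The authors made the deposited UMI count matrices with Cell Ranger 3.1.0 on mm10 (GRCm38); their own analysis used Seurat 3.1.5. The members and lists were chosen with earlier results of these data known. Adult cells with 750 to 7500 genes and under 10% mitochondrial UMIs, and explant cells with at least 1000 genes and under 7.5%, were assigned to one barcode; cells with several were dropped as doublets. The study's methods word the upper limit of 7500 as UMIs; it was applied to genes here, and the alternative under 7500 UMIs follows that wording. In the deposited metadata of run 3 the sequences of the VP barcodes 5 and 6 repeat those of the AP barcodes 1 and 2; the barcode labels were used as given, so the lobe of these run 3 cells rests on them. Cells were clustered without the 89 WNT genes in Seurat 5.3.0 (3000 variable genes, 50 components, resolution 0.4 for adults and 0.3 for explants), and cluster names were rebuilt from markers, so classes can differ from those of the study.

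Counts were summed per run and population (at least 10 cells) and tested with edgeR 4.0.16 (quasi-likelihood, TMM, filterByExpr, Benjamini-Hochberg over all genes, threshold 0.05) in R 4.3.3, without a replicate block. DESeq2 1.42.0 was an alternative. Same-run sums deviated together, with Pearson's r of 0.15 to 0.64 in 19 of 20 pairs and 0.034 in AP against VP RFP- luminal-like cells of run 2; sums of a run share a library. On simulated counts for the AP luminal comparison (8807 genes, 200 of them changed) edgeR recovered 85.4% of 4-fold and 27.8% of 2-fold changes. Of its calls there 12.9% were false, above the threshold of 0.05. The simulated sums were drawn independently of each other, without the shared deviation of same-run sums. In the data 2211 genes were called in this comparison, so these rates need not hold for the data. Poisson and ratio intervals (95%, SciPy 1.17.1) and floors of 3 counts cover counting error only. The 10 members are always named; other list genes are named where they passed a test (at most the 8 with the largest change) or, for castration and explant days, among the called genes with most UMIs; those given for explant clusters were chosen after their values were seen.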

Additional observations from a re-analysis of the deposited data

Results flagged for a closer look

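The RFP difference was compared between lobes and between compartments by interaction terms in edgeR, chosen after the single comparisons had been seen. In luminal-like cells, the Wnt4 difference between RFP+ and RFP- was 4.91 ± 0.65 log2 units (SE) larger in the AP than in the VP (edgeR adjusted p = 0.00160), the fractions being apart in opposite directions in the 2 lobes in all 3 runs. For Axin2 the same difference of differences was 3.12 ± 0.72 (edgeR adjusted p = 0.0236). It rests on 6 and 13 UMIs in the VP RFP+ and RFP- luminal-like cells. Axin2 did not reach the filter on low counts there and entered this fit through its AP counts, so this p-value is no independent support. In that fit 5.91% of 9630 genes were called.

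Within the AP, the RFP difference was larger in luminal-like than in basal-like cells by 3.50 ± 0.58 log2 units for Wnt4 (edgeR adjusted p = 0.00549) and by 4.14 ± 0.91 for Dkk3 (adjusted p = 0.0213), where 6.17% of 9801 genes were called. Dkk3 had 34 and 15 UMIs in the AP RFP+ and RFP- basal-like cells. It did not reach the filter on low counts there and entered this fit through its luminal counts. In basal-like cells the Wnt4 difference of differences between AP and VP was -0.01 ± 0.35 log2 units (edgeR adjusted p = 0.999). No group held more than 3 runs, so single libraries were not tested for standing apart.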

How the results depend on the processing

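Of 306 log2 differences of members under alternatives, 266 kept their direction and side of the threshold, 3 lost and 15 gained a call and 22 changed sign; none of the 22 was a called value. The number of members called became 1 in place of 2 in AP luminal-like cells under 7500 UMIs; 1 in place of 0 in VP luminal-like cells with DESeq2, the replicate block or no low-count filter (0 to 1 leaving out a run, with 1 without run 1); 1 in place of 0 between AP and VP RFP+ basal-like cells and between AP and DLP RFP- luminal-like cells with the replicate block or no filter; and, between AP and VP RFP- luminal-like cells, 4 in place of 2 with no filter, 3 with DESeq2, the replicate block or the WNT list kept in the clustering (Wnt4 gained in each) and without TMM (Wnt7b gained), 1 without the 5% of cells with the most UMIs, and 0 (without run 2) to 3 (without run 1) leaving out a run. Of 17 basal against luminal differences 6 were counted under 7500 UMIs, and of 11 castration calls 3; fewer cells entered there, and other causes were not tested. Over all genes, calls ranged from 0 to 45 (AP basal), 287 to 3139 (AP luminal), 0 to 267 (VP basal), 0 to 210 (VP luminal), 0 to 471 (RFP+ basal), 329 to 5053 (AP against VP luminal) and 1 to 620 (AP against DLP). With run as a replicate block 45, 3139, 182, 146, 471, 1382 and 620 genes were called, in that order; it moved no call of a member besides those given with it. Cells under 7500 UMIs could not be tested in VP luminal-like and AP against VP RFP- luminal-like cells.

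The signs that changed were of uncalled log2 differences. Leaving out a run, AP basal-like values ranged from -0.21 to 0.00 (Wnt4), -0.16 to 0.38 (Wnt6), -0.06 to 0.29 (Wnt7b), -0.29 to 0.05 (Lgr4) and -0.31 to 0.08 (Axin2); AP luminal-like ones from -0.14 to 0.66 (Wnt7b) and -0.10 to 0.39 (Axin2); VP basal-like ones from -0.12 to 0.01 (Wnt4) and -0.40 to 0.10 (Lgr4); and VP luminal-like Sfrp1 from -0.28 to 0.17. Without the 5% of cells with the most UMIs, values were 0.05 (Axin2, AP basal), 0.26 (Wnt4, VP basal), 0.08 (Sfrp1, VP luminal), -0.09 (Wnt4, RFP+ basal) and 0.17 (Lgr4, AP against VP luminal). Under 7500 UMIs Wnt4 was 0.82 (VP basal) and -0.22 (RFP+ basal), and Lgr4 (AP against VP luminal) was 0.02 with no filter and 0.96 without TMM. With the WNT list kept in the clustering Axin2 was 0.08 (AP basal) and Wnt6 1.45 (RFP+ basal). In that setting the endothelial-like cluster held 529 cells, 85.6% with an Epcam UMI, against 143 cells and 69.9% in the main one. Fewer cells were named basal-like there, and the VP RFP+ basal-like arm had 2 sums. The cause of the changed signs was not tested. Few UMIs per member and 3 runs limit what could be called.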
